A study of Homo sapiens with 2 samples.

Results

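The regions described here are runs of neighbouring histone H3 lysine 18 lactylation (H3K18la) peaks in H1299, an established human cell line from a non-small cell lung cancer. They were chosen by the measured positions of the peaks alone: peaks on the same chromosome were joined where the gap between them was 12000 bp or less, and a joined run was kept as a domain where it held 5 or more peaks. The rule kept 438 of 19336 joined units (2.27%), of which 13923 were single peaks. The domains held 2780 of 28695 peaks (9.69%) and 5.67 of the 44.6 Mb covered by peaks (12.7%), and they spanned 15.6 Mb from first to last peak, so that peaks covered 36.4% of the span. The study had 2 libraries from untreated H1299 cells. One was chromatin immunoprecipitated with an antibody against H3K18la from formaldehyde-crosslinked cells, and its peak list is the only file analysed here. The other is labelled as input, while the series' design text speaks of an IgG group, and which of them served as the control of the peak list is not given in the sources used here. With 1 immunoprecipitated library there is no replicate, so all values below are descriptions of this library and no test was made.

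Lactylation is the addition of a lactyl group, derived from lactate, to a lysine, and on histones it is a mark found at promoters and enhancers of active genes. Clusters of marked elements that lie close together are commonly joined by distance to find stretches of dense regulatory chromatin, as is done for super-enhancers, which often lie at genes tied to a cell's identity or growth. Such a run can hold the promoter and inner enhancers of 1 long gene, the promoters of several short genes, or elements with no protein-coding gene nearby.

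Sequences from the domains are shown here for reference in what follows, all taken from RefSeq (GRCh38.p14). The first set gives the stretch of 250 bases upstream of a transcript start, with every TGANTCA (the AP-1 motif, which reads the same on both strands) and every GGGCGG (the GC box, either strand) in capitals. SMAD3 is shown at 2 of its starts because both lay in peaks of the same domain and differ in their letters: the first start has 36 CG pairs and 4 GC boxes, and the inner start shown has 5 CG pairs, no GC box and 1 AP-1 motif that begins 56 bases before the start. Other inner SMAD3 starts, in peaks of 4.98 and 5.5-fold of this domain, have neither motif and are not shown. HDAC7 is shown because its start lay in the strongest peak of any domain, and EPHA2 because its domain was densely covered. PLAU is shown because the start given lay in its domain's widest peak. Another PLAU start in that peak (chr10:73910610) has 4 CG pairs and neither motif, and is not shown.
SMAD3 first start, chr15:67065352-67065601, plus strand: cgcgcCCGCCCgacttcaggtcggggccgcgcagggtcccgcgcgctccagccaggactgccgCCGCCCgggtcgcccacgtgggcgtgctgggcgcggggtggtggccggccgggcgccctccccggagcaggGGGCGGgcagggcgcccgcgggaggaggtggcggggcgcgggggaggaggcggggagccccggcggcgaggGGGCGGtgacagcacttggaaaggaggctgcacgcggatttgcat
SMAD3 inner start, chr15:67125492-67125741, plus strand: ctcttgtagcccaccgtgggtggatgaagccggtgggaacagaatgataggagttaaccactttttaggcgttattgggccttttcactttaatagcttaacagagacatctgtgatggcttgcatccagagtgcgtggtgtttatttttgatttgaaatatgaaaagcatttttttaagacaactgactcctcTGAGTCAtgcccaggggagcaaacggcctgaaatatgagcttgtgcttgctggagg
EPHA2, chr1:16156070-16156319, minus strand: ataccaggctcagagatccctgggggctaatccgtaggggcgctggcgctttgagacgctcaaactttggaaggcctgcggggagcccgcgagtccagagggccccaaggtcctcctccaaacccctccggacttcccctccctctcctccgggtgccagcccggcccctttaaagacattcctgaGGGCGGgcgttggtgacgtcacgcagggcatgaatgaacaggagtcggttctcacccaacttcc
HDAC7, chr12:47819904-47820153, minus strand: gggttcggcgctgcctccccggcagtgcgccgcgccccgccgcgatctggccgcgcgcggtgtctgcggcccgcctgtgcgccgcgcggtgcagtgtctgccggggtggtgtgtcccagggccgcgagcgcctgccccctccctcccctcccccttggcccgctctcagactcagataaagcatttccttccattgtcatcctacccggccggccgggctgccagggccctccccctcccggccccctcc
PLAU, chr10:73910882-73911131, plus strand: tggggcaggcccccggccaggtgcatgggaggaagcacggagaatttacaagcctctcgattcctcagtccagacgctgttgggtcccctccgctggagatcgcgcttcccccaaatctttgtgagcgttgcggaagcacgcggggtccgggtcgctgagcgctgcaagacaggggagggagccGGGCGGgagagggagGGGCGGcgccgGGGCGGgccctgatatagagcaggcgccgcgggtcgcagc

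The second set gives mature miRNAs whose hairpins lay inside domains, with the seed (bases 2 to 8) in capitals, because domains held whole miRNA clusters and several of the miRNAs share a seed. The pairs miR-29a-3p with miR-29b-3p and miR-221-3p with miR-222-3p carry the same seed within 1 domain each, and miR-196b-5p and miR-196a-5p, which share a seed as well, came from 2 different domains at the HOXA and HOXC clusters.
hsa-let-7a-5p: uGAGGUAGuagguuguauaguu
hsa-miR-100-5p: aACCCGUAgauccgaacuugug
hsa-miR-29a-3p: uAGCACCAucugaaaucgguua
hsa-miR-29b-3p: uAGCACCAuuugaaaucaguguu
hsa-miR-221-3p: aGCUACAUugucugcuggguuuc
hsa-miR-222-3p: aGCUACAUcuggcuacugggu
hsa-miR-24-3p: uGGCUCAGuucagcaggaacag
hsa-miR-193a-3p: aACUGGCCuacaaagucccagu
hsa-miR-196b-5p: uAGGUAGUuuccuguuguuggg
hsa-miR-196a-5p: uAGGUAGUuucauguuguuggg
hsa-miR-34b-5p: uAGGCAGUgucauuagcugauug

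Each peak carries the authors' deposited fold enrichment, the peak caller's ratio of immunoprecipitated signal over local background, and a −log10 q value. The authors' peaks had q values up to 0.0472. Among lung markers SFTPC, SFTPB, SCGB1A1 and FOXA2 had no peak in the gene, while NKX2-1 and FOXA1 had 1 each (3.9 and 5.1-fold). INSM1 and CHGA of neuroendocrine cells and CD3E of T cells had none, and the blood cell genes PTPRC and SPI1 had 1 each (3.6 and 3.19-fold). From a wider list of 11 neuroendocrine genes, 1 overlapped a domain: SYP, with 2 domain peaks in the gene (4.86 and 4.42-fold). Of the mesenchymal markers VIM overlapped a domain, and CDH2, ZEB1 and FN1 had 2 or 3 peaks in the gene outside domains. Of the epithelial markers KRT7 overlapped a domain, CDH1, KRT8 and KRT18 had 1 to 5 peaks outside domains, and EPCAM and KRT19 had none.

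Most domains were small. A total of 210 domains (47.9%) held exactly 5 peaks, 146 held 6 or 7, 53 held 8 or 9, and 29 held 10 or more, up to 20. The median domain was 32822 bp long (quartiles 25236 and 41388, range 8526 to 127616) and had 11100 bases in peaks (quartiles 7801 and 15693, range 2671 to 59490). Peaks covered a median 34.5% of a domain, from 10.3% to 90.5%, and 87 domains were covered over 50% while 88 were covered under 25%. The strongest peak of a domain had a median of 7.39-fold enrichment (range 3.62 to 17), and 81 domains (18.5%) had a peak of 10-fold or more. Across the 438 domains the number of peaks ran with length (Spearman's coefficient 0.674) and with covered bases (0.551), which share the peaks that define them, but hardly with the highest fold (0.0887).

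**Figure D1:**
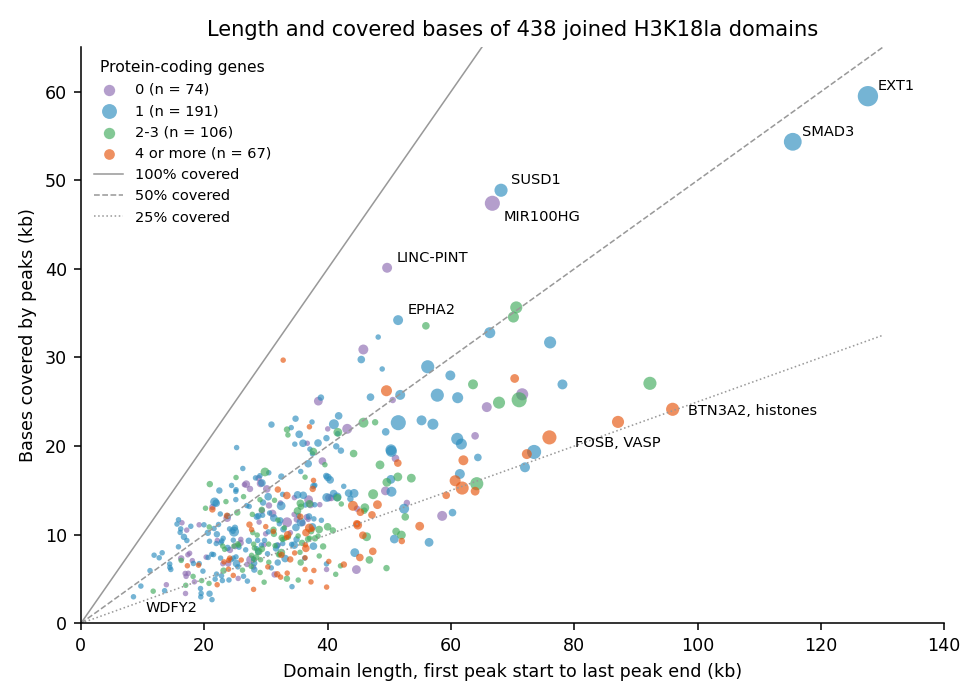
Each point is 1 of the 438 domains, with its length in kb on the x axis and the bases covered by its peaks in kb on the y axis. Colour gives the number of protein-coding genes overlapped, a larger point has more peaks, and the lines mark 100%, 50% and 25% coverage. EXT1 and SMAD3 stand beyond 100 kb, and most domains lie between 20 and 50 kb.

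The 12 domains with the most peaks, beginning with those in EXT1 (20 peaks) and SMAD3 (17), were 51467 to 127616 bp long and overlapped 22 protein-coding genes. The other 426 domains had a median length of 32516 bp (8526 to 87093), a median of 10879 covered bases (2671 to 40126) and a median of 1 protein-coding gene (0 to 12). The order depends on the measure used: of the 12 domains with the most peaks, 6 were also among the 12 longest, 4 among the 12 with the most covered bases, and 0 among the 12 with the highest fold.

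The threshold of 5 peaks cut through a continuous series. The 462 units of 4 peaks just outside had a median length of 21384 bp and a median strongest peak of 6.82-fold, and the 210 domains of 5 just inside had 27145 bp and 7.25-fold. The share covered was nearly the same, with medians of 34% and 34.4%. The joining distance also had no natural break: the widest gap joined was 12000 bp and the narrowest not joined was 12001 bp, 9359 of 28672 gaps (32.6%) were joined, 37 domains had an outside peak within 13000 bp, and 96 were held together by a gap over 11000 bp.

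The domains ranked 13 to 40 by peaks held 9 to 12 peaks each. EPHA2, a receptor tyrosine kinase of the ephrin family, lay in a domain of 9 peaks (chr1:16138193-16189627) that was 66.5% covered. Its peaks had folds of 6.58, 12.6, 8.83, 5.85, 7.69, 3.62, 7.33, 3.63 and 3.71 along the domain, and the highest was a peak of 4747 bp inside the gene rather than the 8.83-fold peak at its start. The domain of PLAU, the urokinase plasminogen activator, and CAMK2G, a calcium-dependent kinase, had 11 peaks (chr10:73873721-73941519). Its highest peak was 10.4-fold and lay between the genes, and the peak at the PLAU start was 9.77-fold and 8188 bp wide. The domain of TGM2, a transglutaminase that crosslinks proteins, had 11 peaks over 61023 bp with a top fold of 9.01, and 6 of the peaks overlapped the gene.

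Several domains of this rank had peaks along a gene, with the strongest at its start in some of them. TRIO, an exchange factor for small GTPases, had 10 peaks with the 9.67-fold strongest at its start (chr5:14142365-14208663). The domain of SHB, an adaptor protein of receptor signalling, had 11 peaks, 10 of them in the gene, with 8.47-fold at its start. The domain of CDCP1, a transmembrane glycoprotein, had 10 peaks with 6.74-fold at its start, and that of NEK6, a mitotic kinase, had 9 peaks, 8 of them in the gene, with 6.67-fold at its start. The domain of TGFBI, an extracellular matrix protein induced by TGF-beta, had 10 peaks of 2.89 to 6.6-fold, of which 5 overlapped the gene, with 4.53 to 6.6-fold. The domain of ZMYND8, a chromatin reader, had 9 peaks over 78086 bp, 6 of them in the gene, and reached 11.5-fold. MACF1, a crosslinker of actin and microtubules, had 9 peaks, all inside this long gene and none at either outer end in the annotation. An inner transcript start of MACF1 (chr1:39204695) lay in the domain's 5.83-fold peak.

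Other domains of this rank joined peaks at neighbouring genes. FOSB, an AP-1 factor, shared a domain of 11 peaks on chromosome 19 (chr19:45422987-45510079) with ERCC1, RTN2, PPM1N and VASP, where the peak in FOSB had 3.78-fold and the strongest, 9.58-fold, was at VASP, an actin regulator. The 10-peak domain with MIDN, CIRBP, FAM174C, ATP5F1D, EFNA2 and CBARP (chr19:1236808-1286356) had 8 peaks at gene ends, a top fold of 12 at MIDN and the high median fold of 7.99. LIF, a cytokine of the interleukin-6 family, and HORMAD2 lay in a domain of 9 peaks on chromosome 22 whose strongest, 8.47-fold, was at the LIF gene. BCL2L1, an inhibitor of apoptosis, and TPX2, a spindle protein, shared 9 peaks of 2.34 to 8.37-fold.

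The highest folds came from domains of 5 to 8 peaks, which were most of the domains, and only 29 of the 438 held 10 or more. HDAC7, a class IIa histone deacetylase, had the strongest peak of any domain, 17-fold with a −log10 q of 180.5, in a domain of 5 peaks (chr12:47808008-47829598) whose other peaks had 2.54, 7.82, 2.54 and 3.1-fold. ARHGEF17, an exchange factor for small GTPases, had a 16.5-fold peak at an end of the gene among 5 peaks. Next were the MSL1 start in a domain shared with NR1D1, a nuclear receptor of the circadian clock (15.1-fold), a peak between NDST1 and RPS14 (14.8-fold) and the ADAMTSL5 start in a domain of 7 peaks (14.7-fold). The strongest peak was a median 1.64 times the domain's own median peak, from 1.03 to 5.49 times, with HDAC7 at the upper end.

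**Figure D2:**
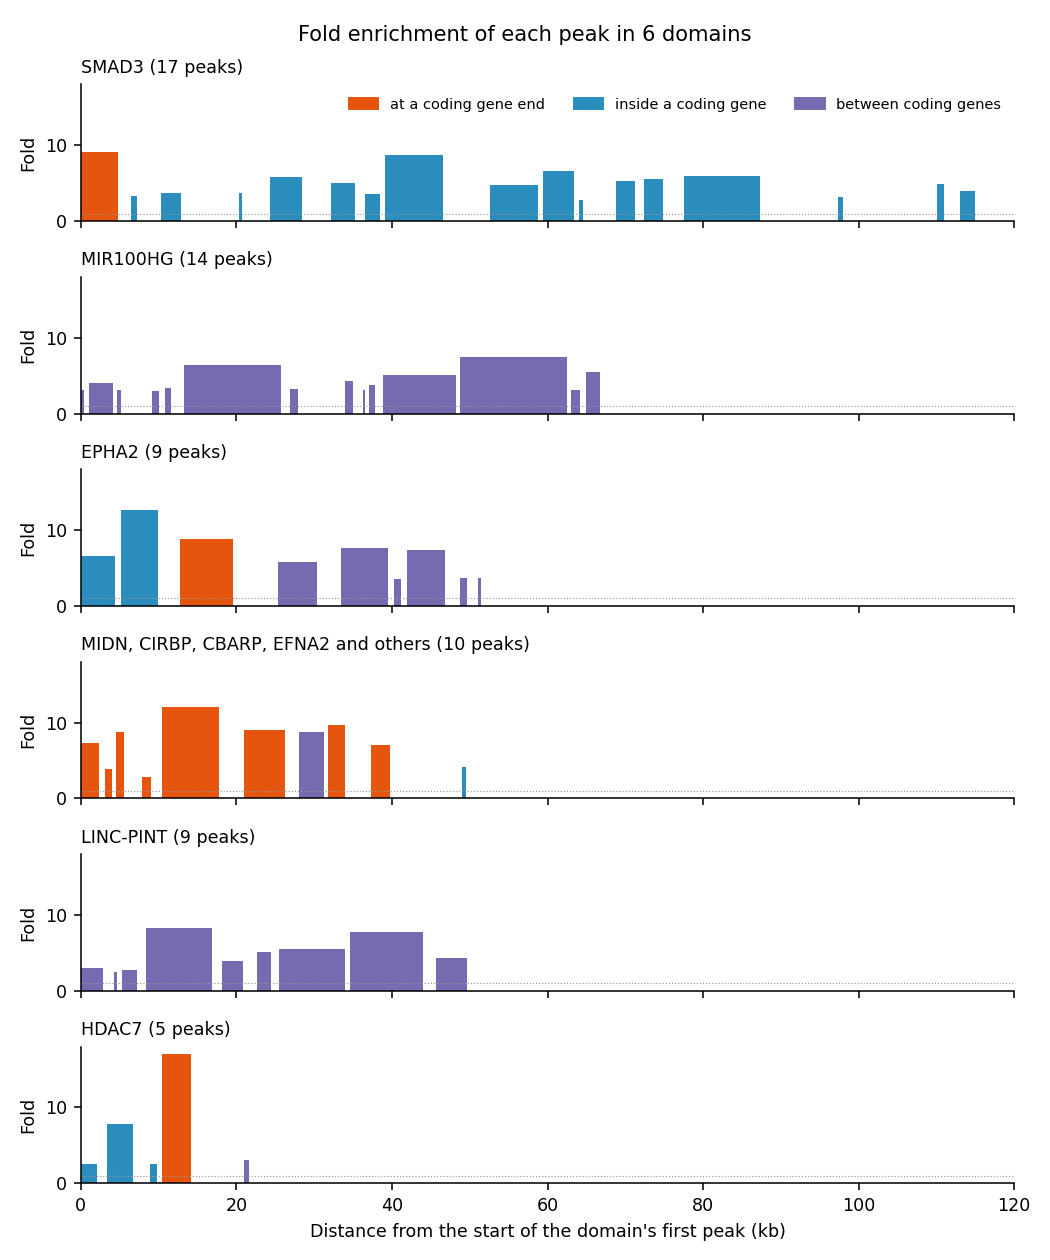
Bars give the fold enrichment (y axis) and extent of each peak in 6 domains against the distance in kb from the start of the first peak, and the dotted line is a fold of 1. Colours mark peaks within 1000 bp of a protein-coding gene end, inside such a gene, or between such genes. SMAD3, with 17 peaks, starts with a 9.09-fold peak at the gene start, the MIR100HG and LINC-PINT domains have no peak at or in a protein-coding gene, and HDAC7 has a single 17-fold peak.

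Domains also differed by the number of protein-coding genes they overlapped. A domain was said to overlap a gene where they shared at least 1 bp. There were 74 domains (16.9%) with none, 191 (43.6%) with 1, 106 (24.2%) with 2 or 3 and 67 (15.3%) with 4 or more, up to 12. The median fold of their peaks was 3.88, 4.03, 4.66 and 5.09 in this order, and the share of domains with a peak of 10-fold or more was 5.41%, 12.6%, 27.4% and 35.8%. Coverage ran the other way beyond 1 gene: peaks covered a median of 36.1%, 40.7%, 29.9% and 26.4% of the domain, and the median widest peak was 4612, 4158, 3401 and 2855 bp. The share of peaks at a gene end was 0% in the first class, which is fixed by its definition, then 12.4%, 37% and 69.2%. Over all domains, Spearman's coefficient between the number of genes and the median fold was 0.378, and with the share covered it was -0.311. The local background, solved from each peak's fold and p under a Poisson model and expressed in reads, moved in the same direction as the fold, with medians of 3.55, 4.04, 4.47 and 4.83, and its part in these differences was not tested.

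**Figure D3:**
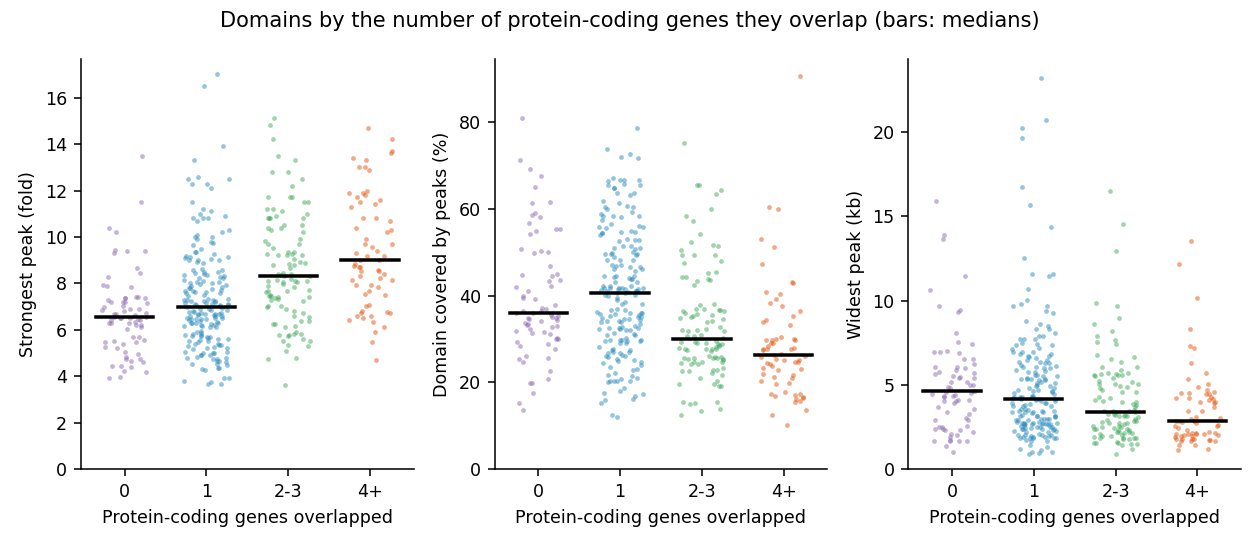
Each point is a domain, grouped by the number of protein-coding genes it overlaps (x axis), with black bars at the medians. From left to right the y axes give the fold of the strongest peak, the percentage of the domain covered by peaks and the width of the widest peak in kb. The median of the strongest peak is 6.54-fold with no gene and 9.03-fold with 4 or more genes.

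Of the 191 domains with 1 gene, 67 lay wholly within the gene with neither of its ends inside, 96 held 1 end and 28 held the whole gene. The median strongest peak was 6.17, 7.24 and 7.91-fold in these kinds. Examples without an end are EXT1, the glycosyltransferase of heparan sulfate synthesis (20 peaks, none at an end), ATXN1, a transcriptional regulator (13 peaks of 2.48 to 4.77-fold), CDK6, the G1 cyclin-dependent kinase (9 peaks of 2.45 to 4.73-fold), and MET, the receptor of hepatocyte growth factor (7 peaks of 3.06 to 5.46-fold). LMNA, which encodes the nuclear lamins A and C, had 5 peaks of 2.89 to 7.99-fold in the same arrangement. Only the outer ends of the annotated gene are counted here. An inner transcript start can lie in such a domain, as it did in MACF1.

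At the other extreme were runs of peaks at gene ends, each of which can be a start or an end of the gene. In 12 domains every peak lay within 1000 bp of a protein-coding gene end, among them the domain with EIF4A1, a translation initiation helicase, SENP3, CD68 and FXR2 (7 peaks, top 13.7-fold), the domain with PFN1, the actin-binding profilin, and ENO3 (5 peaks, top 13-fold), and the domain with GABARAP, DVL2, PHF23 and CLDN7 (5 peaks, top 14.2-fold). The domain with the most genes overlapped 12, including the tetraspanins CD151 and TSPAN4 and the ribosomal protein gene RPLP2, with 8 peaks over 70336 bp (chr11:776456-846791).

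The peaks inside domains were wider than the others, while their median fold over all places was not higher. Their median width was 1496 bp against 1232 bp outside, and their median fold was 4.29 against 4.37. Peaks of 5000 bp or more made up 7.09% of domain peaks and 1.92% of the rest, so that 197 of these wide peaks (28.3%) lay in domains, and 151 domains (34.5%) had at least 1. The rule counts a wide peak as 1 peak, whatever its width. Fewer domain peaks lay at a protein-coding gene end (25.1% against 38.7%) and more lay between protein-coding genes (38.2% against 27.6%), while shares inside genes were 36.7% and 33.7%. The peaks outside include 13923 single peaks, and smaller runs were more like the domains. Peaks at a gene end made up 28.4% in units of 3 peaks, 27.6% in units of 4 and 27.9% in domains of 5. Their median peak widths were 1287, 1378 and 1462 bp. Domain peaks at a gene end had a median fold of 5.76, those inside genes 3.91 and those between genes 3.9. For peaks outside domains these medians were 5.44, 3.88 and 3.92, so at gene ends the domain peaks had the higher median. The strongest peak lay at a gene end in 187 domains (42.7%), and it was also the widest in 200 (45.7%). It was the first or last peak in 176 domains (40.2%), where terminal peaks made up 31.5% of domain peaks.

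In all, 791 of 19866 protein-coding genes (3.98%) overlapped a domain, and 728 (3.66%) had an end inside. The genes were short: their median length was 12812 bp, against 25044 bp for the rest. The background share of 3.98% is the one against which the gene lists below are read, and the lists and the domains were both known when they were set, so that no list was tested. Of 36 lists, 9 had no gene in a domain, 12 had 1 or 2, and 15 had 3 or more. In 26 of the 36 the share was above the background, so a share above it does not set a list apart from most others. Some shares were close to the background, such as 4.08% for receptor tyrosine kinases.

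Among transcription factors, 6 of 15 AP-1 genes overlapped a domain: FOSB, FOSL1, JUN, JUNB, JUND and MAFG. FOSL1 lay in the most densely covered domain of all, with 5 peaks over 90.5% of 32801 bp and a top fold of 10.8, which it shared with DRAP1, FIBP, CCDC85B and C11orf68. The single peak in JUN had 6.89-fold, in JUNB 8.38-fold and in JUND 11.7-fold, and MAFG had peaks of 5.31 and 12.9-fold. Of 39 HOX genes, 14 overlapped a domain, but these were only 2 domains: 8 genes of the HOXA cluster shared 8 peaks over 54934 bp, 19.9% covered and with a top fold of 9.3 at HOXA3 and HOXA4, and 6 genes of the HOXC cluster shared 5 peaks over 37057 bp, 59.9% covered and with 1 peak of 13518 bp. None of 45 forkhead genes overlapped a domain. Of 26 KLF and SP factors there were 4 (KLF2, KLF6, KLF16 and SP1), of 30 nuclear receptors 2 (NR1D1 and NR2F6), and of 509 ZNF genes 11 (2.16%).

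Among genes of adhesion and the cytoskeleton, 10 of 36 overlapped a domain (27.8%). BCAR1 (a scaffold of focal adhesions) and ACTN4 (alpha-actinin) each had 5 peaks within the gene, with folds of 2.75 to 9.9 and 2.57 to 7.67. PTK2, the focal adhesion kinase, had 3 of its domain's 10 peaks in the gene, with 9.19-fold at the end of the gene that lies inside. ACTG1 (gamma-actin), TAGLN2 (a transgelin) and PFN1 had their highest peaks at 11.3, 11.7 and 13-fold. The PTK2 and ACTN4 domains lay where the solved background was high, at 9.01 and 10.9 reads against a median of 4.05 over domains, and the part of this in their peaks was not tested. Of 26 integrin genes 2 were in domains (ITGB1 with 2 peaks up to 8.49-fold, and ITGA7), and none of 44 collagen genes was.

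In the TGF-beta list 6 of 35 genes overlapped a domain. SMAD3, the signal transducer whose upstream sequences are printed above, had all 17 peaks of its domain (chr15:67064375-67179803) in the gene. The 9.09-fold peak at the first start was the highest, followed by 8.76-fold in a peak of 7450 bp about 39.1 kb into the domain and 6.65-fold at the inner start with the AP-1 motif. The inhibitory SMAD7 had 5 peaks of 3.18 to 6.75-fold in the gene, the ubiquitin ligase SMURF2 had 2 and the ligand TGFB1 had 2, of 3.1 and 5.7-fold. The latent TGF-beta binding proteins LTBP2 and LTBP4 had 5 each. The TGFB1 and LTBP4 domains lay on chromosome 19 from 29 to 46 Mb, and the LTBP2 domain on chromosome 14 from 60 to 82 Mb. The median solved background of domain peaks was 11.9 and 5.85 reads there, against 4.16 over all domain peaks. Its part in the peaks of these genes was not tested. Of 18 mesenchymal genes 4 overlapped a domain, among them TGFBI, VIM and SPARC.

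In the list of MAPK feedback genes 4 of 25 overlapped a domain: the phosphatases DUSP1 and DUSP5, IER3 and KLF6, with highest peaks in the gene of 7.27, 4.87, 8.32 and 10.8-fold. In the NF-kB list it was 4 of 22, namely RELA (9.68-fold), NFKBIE (7.35-fold), TNFAIP2 (4.15-fold) and TNIP1 (6.38-fold). The cell cycle list had 4 of 31, CDK4, CDK6, CDC25B and AURKB. For metabolism, SLC2A1, the glucose transporter GLUT1, had 7 of its domain's 8 peaks in the gene with folds of 3.39 to 10.8, and GAPDH, the glycolytic dehydrogenase, had 1 peak of 11.9-fold in a domain of 5. They were the 2 of 19 glycolysis genes in domains. None of 13 genes of lactate production and transport and none of 11 genes of histone acetyl and lactyl writers overlapped a domain, nor did any of 17 lung lineage genes, 12 blood cell genes, 389 olfactory receptor genes, 94 keratin-associated protein genes or 66 protocadherin genes. Other lists with members in domains were ribosomal protein genes (10 of 86, each with 1 peak in the gene of 3.52 to 6.65-fold), histone deacylases (3 of 18: HDAC7, HDAC10 and SIRT7), epithelial genes (3 of 15: KRT7, CLDN4 and CLDN7), extracellular proteases and inhibitors (3 of 22, among them PLAU and its receptor PLAUR), cytokines and chemokines (3 of 25: CXCL2, LIF and CSF2), Hippo pathway genes (2 of 21: AMOTL2 and PTPN14), hypoxia targets (2 of 18: EGLN1 and DDIT4) and receptor tyrosine kinases (2 of 49: EPHA2 and MET). CLDN7, CSF2 and, of the HOX genes above, HOXA6 had no peak in the gene itself. MYC overlapped none, with 2 peaks of up to 4.72-fold in the gene.

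**Figure D4:**
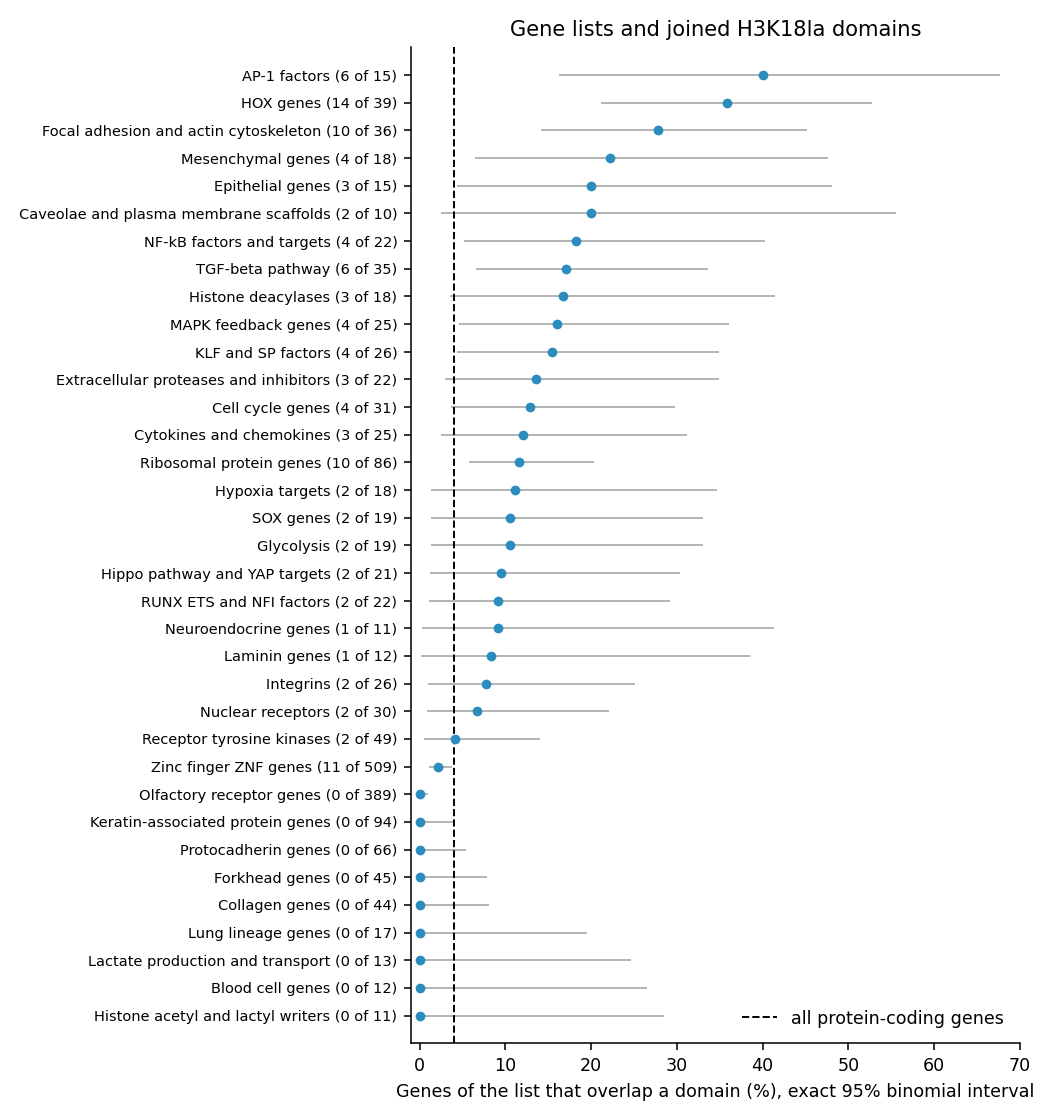
For each of 35 gene lists, the point gives the percentage of its genes that overlap a domain, with an exact 95% binomial interval for counting error only, and the dashed line gives all protein-coding genes (3.98%). AP-1 factors (6 of 15) and HOX genes (14 of 39) are at the top, the first in 6 separate domains and the second in 2, and 9 lists are at 0.

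Noncoding genes were part of many domains. A total of 342 of 18010 lncRNA genes (1.9%) overlapped a domain, in 241 domains. For miRNA genes it was 71 of 1913 (3.71%) in 55 domains, a share near that of protein-coding genes. The RefSeq sequence table had 64 of these hairpins, of which 29 overlapped a peak. MIR100HG, the host of miR-100 and let-7a-2, made the domain with the most peaks and the most covered bases among those without a protein-coding gene (chr11:122136311-122203027). Of its 14 peaks, 3 were wide, with 12446, 9300 and 13662 bp and folds of 6.36, 5.07 and 7.39, and the other 11 were between 288 and 3173 bp. The miR-100 hairpin lay in the 6.36-fold peak and the let-7a-2 hairpin lay 231 bp outside a 3.02-fold peak. LINC-PINT, whose domain also holds miR-29a and miR-29b-1, had 9 peaks over 80.8% of 49654 bp, with 8.27-fold at most, and both hairpins lay in its 2.95-fold first peak.

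The hairpins of miR-23a, miR-27a and miR-24-2 lay in a single peak of 10.6-fold in the domain with NANOS3 (chr19:13833052-13881908), which has the widest peak of any domain, 23204 bp. The miR-181c and miR-181d hairpins of the same domain lay outside its peaks. The miR-193a hairpin lay in a 10.2-fold peak, and the miR-34b hairpin in an 8.66-fold peak with miR-34c 198 bp outside it. The miR-221 and miR-222 pair on the X chromosome lay 1289 and 431 bp from a 3.73-fold peak, in a domain of 9 peaks that were all weak, from 3.16 to 3.98-fold. Strong and weak domains thus both held miRNA clusters.

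Genes of transfer RNA stood out by their share: 81 of 429 (18.9%) overlapped a domain. They were in 14 domains, 5 of them on chromosome 6 with 41 of the genes, and a domain held up to 13. The histone gene domain with BTN3A2 (chr6:26269725-26365674, 12 peaks) and the domain with TRIM7 and TRIM41 (chr5:181160182-181224371, 12 peaks) had 13 each, and a domain of 9 peaks with no protein-coding gene (chr6:27495022-27553602) had 10. Histone cluster genes, a family chosen here after its domains were seen, were in 3 domains on chromosome 6 that overlapped 17 of 69 of them (24.6%), with top folds of 7.92 to 9.03. Both families sit in dense arrays on this chromosome, so the counts of genes come from few domains.

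The 74 domains with no protein-coding gene had a median length of 30320 bp and a median strongest peak of 6.54-fold. A lncRNA gene overlapped 47 of them and 24 had no annotated gene of any kind. After MIR100HG, the most peaks were in a domain at LNCATV and LINC03108 on chromosome 1 (11 peaks, top 9.39-fold), LINC-PINT and PVT1 (9 each), LINC00673 (9 peaks, 37.1% covered) and MSRB3-AS1 (9 peaks). The domain with no gene and the most peaks lay beside SMURF2 (chr17:64704283-64742784), with 8 peaks over 65.1% of its length and 9.39-fold at most. A domain at LINC01816 (chr2:70111569-70143560) had the highest fold of those without a protein-coding gene, 13.5.

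Domains also lay near each other: 77 (17.6%) had another within 100 kb and 21 within 20 kb. The pair with the most peaks was the domain of UGCG, the glucosylceramide synthase, with 14 peaks, and that of SUSD1, with 12, which lay 30183 bp apart on chromosome 9 and together had 71517 bases in peaks. They differed in make-up, since the UGCG domain was 44% covered and the SUSD1 domain 71.7%, with a peak of 16733 bp. Around DKK3, a secreted WNT antagonist, and MICAL2, an actin-oxidising enzyme, 4 domains with 22 peaks lay within 250.4 kb. A run of 3 domains with 24 peaks joined GADD45B, LMNB2 and GNG7 on chromosome 19. Of 8 genes that overlapped 2 domains each, CRIM1 had 17 peaks in them, GNG7 16 and HMGA2, a chromatin architectural protein, 14, all 14 in the gene. PVT1, a lncRNA gene near MYC on chromosome 8, overlapped 2 domains 52919 bp apart with 5 and 9 peaks.

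Domains were unevenly spread over the chromosomes. Chromosome 1 had the most (42), followed by chromosomes 19 (39), 11 (31), 6 (29), 12 (28) and 17 (27). As a share of the chromosome's own peaks, domains held 17.1% on chromosome 19, 16.2% on 20 and 13.4% on both 11 and 16, against 9.69% over all. At the low end were chromosome 21 with 2.72% and 1 domain, chromosome 4 with 3.1%, the X chromosome with 3.47%, and chromosomes 13 and 18 with 5.05% and 5.21%. Chromosome 19 domains overlapped a median of 3 protein-coding genes and none lacked one, whereas 12 of the 29 on chromosome 6 had none. The median gap between neighbouring peaks was 17295 bp on chromosome 19 and 65637 bp on 13, and the joining rule acts on these gaps. The strongest peaks were highest on chromosome 17, with a median of 10.01-fold over its 27 domains.

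**Figure D5:**
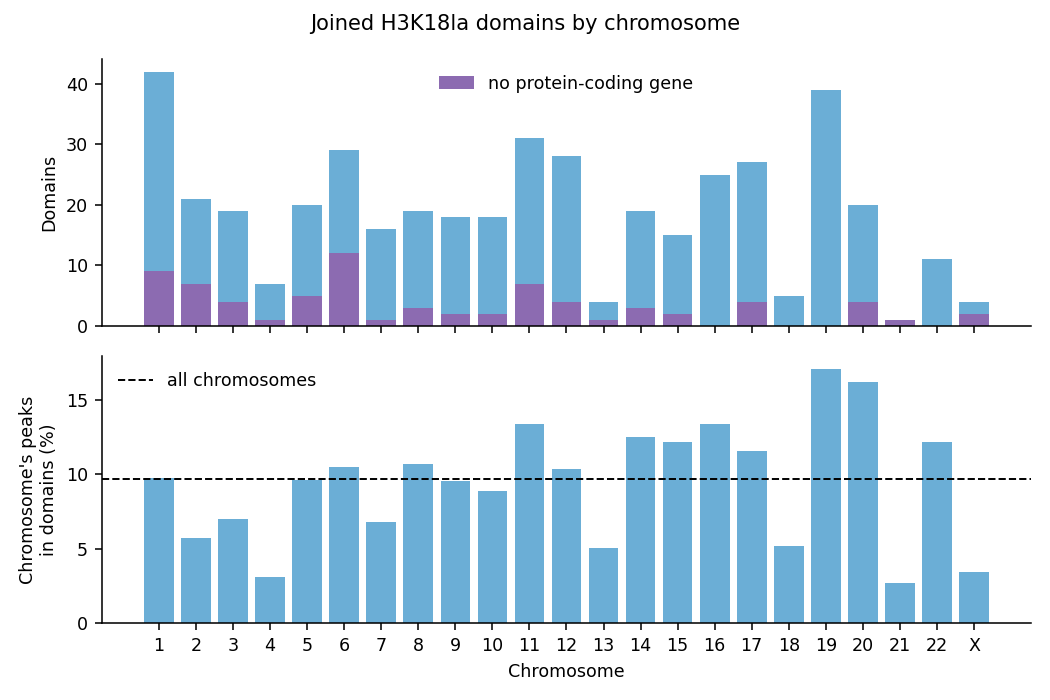
The upper panel gives the number of domains per chromosome, with those that overlap no protein-coding gene in purple. The lower panel gives the percentage of each chromosome's peaks that lie in domains, and the dashed line is the value over all chromosomes (9.69%). Chromosomes 19 and 20 are highest, at 17.1% and 16.2%, and chromosome 21 is lowest, at 2.72%.

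The background also differed along chromosomes. In windows of 5 Mb, 40 of 587 had a median solved background of at least 1.5 times the median of all peaks (5.74 against 3.83 reads), and these held 53 of the domains (12.1%) and 9.08% of the peaks. Within them 12.9% of peaks lay in domains, against 9.37% elsewhere. On chromosome 19 from 29 to 46 Mb there were 10 domains at a median background of 11.9 reads, among them FOSB with VASP and ACTN4, on chromosome 14 from 60 to 82 Mb 8 domains at 5.85 reads, and on chromosome 8 beyond 120 Mb 5 domains at 6.73 reads, including PTK2 and PVT1. Without these windows 385 domains were left. The background's part in the number of domains was not otherwise tested.

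For the promoters, the RefSeq table gave windows of 300 bases around transcript starts for 631 of the 791 genes in domains (79.8%). This is under the 80% needed for a statement on all of them, so a comparison over the whole set is void and the shares below describe the windows in the table. Of 948 windows of these genes, 6.12% held TGANTCA, against 6.15% of all 22132 windows. By place it was 5.97% of starts in domain peaks (exact 95% interval 4.24 to 8.13), 4.32% of starts in other peaks (3.94 to 4.74) and 7.82% of starts in no peak (7.33 to 8.33). The 620 starts in domain peaks belong to 472 genes and some windows overlap, which the intervals do not allow for. GGGCGG, on either strand, was in 67% against 56.3%. For starts inside a domain peak the GC box share was 74.4%, for starts in other peaks 75.3% and for starts in no peak 38%. The ratio of observed to expected CG pairs was a median of 0.817 in starts inside domain peaks, 0.861 in starts in other peaks and 0.402 in starts outside peaks. By the GC box and the CG ratio the starts in domain peaks were nearer to those in other peaks than to those in no peak. A match to a motif says nothing of binding.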

How the data were processed

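Chromatin of H1299 cells was immunoprecipitated with an antibody against H3K18la in 1 library, and a second library was labelled input. The submitters' processing notes name bcl2fastq 2.17, cutadapt 1.18, Trimmomatic 0.38, Bowtie2 2.3.4.1, Picard, MACS2 (2.1.2 and 2.1.0), ChIPseeker and the hg38 build, with no parameters. The deposited file is a broad peak list of the authors with, for each peak, a score, a fold enrichment (a ratio), and the −log10 p and −log10 q values. The score was not used. The list gives no read counts, so the sequencing depth is unknown and no interval on a fold can be given. Peaks were sorted, joined and summarised with Python 3.11.15, pandas 2.3.3, numpy 2.4.6 and SciPy 1.17.1, and the code was tested on simulated data. Genes came from the RefSeq table (GRCh38.p14), with 718 of 59679 placed entries left out because they lay on alternative sequences or out of order, leaving 19866 protein-coding genes. A peak was at a gene end within 1000 bp of either end. The table has no strand, so a start and an end cannot be told apart except where a sequence window gives the start. The background of a peak was solved from its fold and p, taking the fold as (reads + 1) over (background + 1) and the p as a Poisson tail, which is a reconstruction. Intervals on shares are exact (Clopper-Pearson) at 95% and cover counting error only.

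The domains and all gene lists were chosen with earlier results of these data known. Domains named in the text are the 12 with the most peaks, longest, most covered or highest in fold, ranks 13 to 40 by peaks, the largest on each chromosome, the 10 with the most peaks among those without a protein-coding gene, and the longest and shortest of 5 peaks. Genes of a list are named by their number of domain peaks, and MYC is always given. Some genes that this rule names are not reported here. Other named domains were picked after their values were seen.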

Additional observations from a re-analysis of the deposited data

How the results depend on the processing

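The number and size of domains follow the rule that defines them, by construction. A joining gap of 5000, 8000 or 20000 bp gave 119, 238 or 813 domains in place of 438, with 698, 1445 or 5654 peaks, 1664528, 3166851 or 10947768 covered bases, a median length of 21553, 25262 or 49379 bp and 136, 324 or 2020 protein-coding genes. A minimum of 4, 6 or 8 peaks gave 900, 228 or 82 domains, with 4628, 1730 or 792 peaks, 9129638, 3607940 or 1720926 covered bases, a median length of 25417, 39800 or 52190 bp and 1440, 438 or 162 genes. Joining fewer peaks had similar effects: peaks with a −log10 q of 5 or more gave 126 domains (732 peaks, 1877128 bases, 36888 bp, 306 genes), and peaks of 4-fold or more gave 81 (459 peaks, 1249494 bases, 36496 bp, 194 genes). Peaks at least 500 bp wide gave 291 domains (1817 peaks, 34972 bp). Leaving out peaks within 2500 bp of a protein-coding gene end gave 199 (1245 peaks, 2600012 bases, 30144 bp, 98 genes). Of the 438 domains, 117 overlapped a domain at a gap of 5000 bp and 236 at 8000 bp. Counting only genes wholly inside a domain gave 367 in place of 791. An alternative chosen after seeing the data, which left out the windows of raised background, gave 385 domains with a median length of 32726 bp. The share of promoters with GGGCGG moved from 67% to 74.4% when the start had to lie in a domain peak. Without replicates the domains could not be checked in a second library, and without read counts the depth behind a fold is unknown. No paired analysis was possible because there is 1 immunoprecipitated library.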
